A study of Mus musculus with 2 samples.

Results

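The genes described here are 10 that carry out antigen presentation by major histocompatibility complex (MHC) class I, chosen by symbol from the 24091 genes of the table. They are the heavy chains H2-D1 and H2-K1, the light chain B2m, the peptide transporter subunits Tap1 and Tap2, the loading factor Tapbp, the immunoproteasome subunits Psmb8, Psmb9, and Psmb10, and the transactivator Nlrc5. RNA sequencing was carried out on polyadenylated RNA of cells labelled as primary adipocytes from the gonadal fat of C57BL/6 mice, with 1 library from sham-irradiated mice and 1 library from mice given pelvic radiation. The radiation is labelled as 7.5 Gy and 5 days, without stating if that was each day's dose or the sum, and PBS is part of the name of both libraries. The fat was harvested 2 months later, collagenase was used to free the cells of the fat, and the fraction that floated was kept in culture for 3 days. How many mice gave RNA to each library is not stated in the sources used here. Below, the values of sham-irradiated cells are called sham. The comparison asks how the RNA of these genes differed after radiation, and with 1 library per condition no test was possible.

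Class I molecules sit on the surface of nearly all nucleated cells and show short peptides of the cell's own proteins to CD8+ T cells. The proteasome cuts the peptides, TAP carries them into the endoplasmic reticulum, and tapasin helps to place them in the groove of a heavy chain paired with β2-microglobulin. Interferons are known to induce this set of genes, and NLRC5 is known to act on several of them, the heavy chains included.

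All 10 genes had a higher value in the irradiated library, and all by less than 0.5 on the log2 scale. A difference is the deposited log2(FPKM + 0.1) of the irradiated library minus that of the sham-irradiated library, where FPKM is the fragments of a gene per kilobase of its length, scaled to the library total. The differences ran from 0.04 for Psmb10 to 0.39 for H2-D1, with a median of 0.20. For counts and medians a gene had to reach an FPKM of 1 in either library, which 11253 genes did. Among them the median difference was 0.02, and the middle 50% of these genes lay between -0.08 and 0.14. Of the 10 genes, 9 passed that minimum, all but Nlrc5, and the median of the 9 was 0.19. A difference above 0 was found in 9 of these 9, against 53.5% of all genes that passed, and one below 0 in 0, against 44.0%. A difference of at least 0.5 was found in 0 of the 9, against 4.31% of all genes that passed higher and 1.44% lower, and a difference of at least 1 was also found in 0, against 0.791% higher and 0.373% lower.

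The depth, recovered from the values as described with the processing, was 30577000 fragments for sham and 34995000 fragments for irradiated cells. From the fragments of each gene, a 95% interval of the ratio between the libraries was computed, which covers counting error only. This counting interval lay above 0 for 7 of the 10 genes and for 6 of the 9 that passed, against 23.8% of all genes that passed. It included 0 for the other 3, the immunoproteasome subunits, and lay below 0 for 0 of the 10, against 17.4%. Variation between mice and cultures is not part of this interval.

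Markers of mature fat cells were detected only in part. Adipoq, which encodes the fat cell hormone adiponectin, had 5 fragments for sham and 10 after radiation, and 7 of 10 mature adipocyte markers were under an FPKM of 1 in both. The other 3 were Fabp4, a fatty acid carrier, with an FPKM of 96.9 in both, Pnpla2, a lipase, with 5.11 and 5.76, and Pparg, the master regulator of fat cell formation, with 4.59 and 4.69. The summed FPKM of 12 fibroblast and progenitor markers was 4412 for sham and 3520 after radiation, with 6 of the 12 higher, 6 lower, and a median difference of -0.02. Most of the sum was collagen RNA, such as Col1a1 (1937 and 1428) and Col3a1 (873 and 694). In such mixed material, fewer cells of a type and less RNA per cell cannot be told apart.

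**Figure D1:**
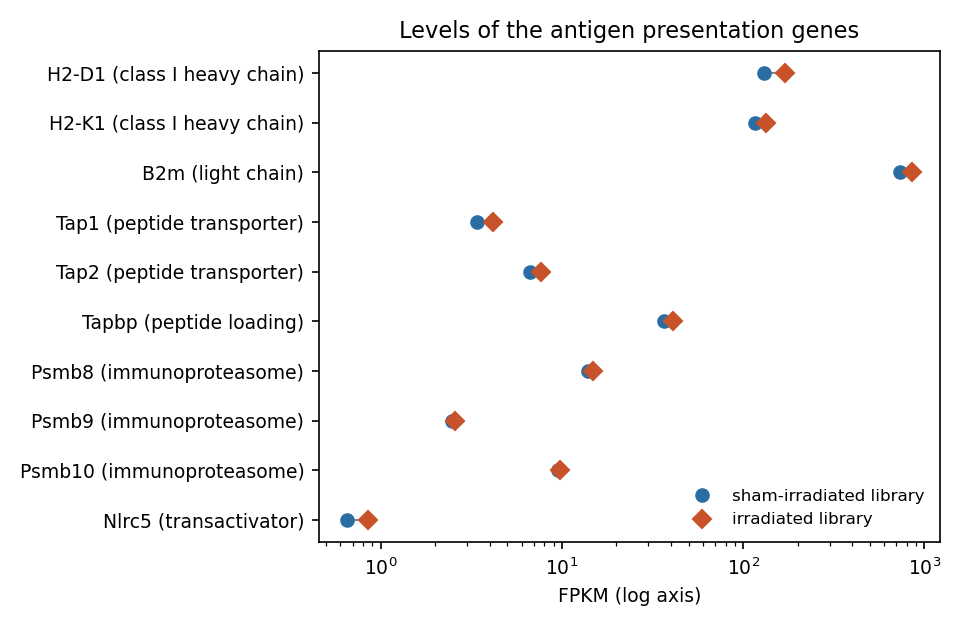
FPKM of the 10 antigen presentation genes on a log axis, with a circle for the sham-irradiated and a diamond for the irradiated library, 1 library each. The genes span from Nlrc5 at 0.653 and 0.846 to B2m at 729 and 849, and the diamond lies to the right of the circle in each row.

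Ranked by FPKM, which is a level per length, the 10 genes had the same order in both libraries. From the highest to the lowest it was B2m, H2-D1, H2-K1, Tapbp, Psmb8, Psmb10, Tap2, Tap1, Psmb9, and Nlrc5. B2m ranked 43rd of all 24091 genes by FPKM for sham and 22nd after radiation. H2-D1 ranked 362nd and 259th, and H2-K1 ranked 421st and 345th. The light chain and the heavy chains were thus among the most abundant RNAs of these cells. The transporter ranked far lower, with Tap2 at 6328 and 6019 and Tap1 at 8457 and 7985.

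H2-D1 and H2-K1 encode the classical heavy chains of this strain, which form the peptide groove and the part that T cells read. H2-D1 (chromosome 17, 35263094 to 35267497, plus strand, build mm10) had an FPKM of 131 for sham and 171 after radiation, from 7459 and 11188 fragments. Its value was 1.31-fold higher in the irradiated library, a difference of 0.39 with a counting interval from 0.35 to 0.43. A difference at least this high was found in 7.24% of the 11253 genes. H2-K1 (chromosome 17, 33996012 to 34000333, minus strand) had an FPKM of 116 and 134 in the same order, from 8155 and 10797 fragments. Its difference was 0.21, with a counting interval from 0.17 to 0.25, and 17.3% of genes were at least as high.

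The heavy chains differed from each other in the size of the difference. The FPKM of H2-D1 was 1.13 times that of H2-K1 for sham and 1.27 times after radiation, a log2 change of 0.18 with a counting interval from 0.12 to 0.24. Class I genes resemble each other, and no source used here gives the counting rule for fragments that match several genes. Of the 75-base windows of the longest coding transcript of H2-D1 in the GENCODE annotation, 6.90% also occurred in a transcript of another gene, most often H2-Q1. For H2-K1 the share was 1.55%, with H2-D1 as the most frequent partner, and with windows of 100 bases it was 4.64% for H2-D1 and 0 for H2-K1. The part of shared fragments in the values of both genes was not tested.

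B2m encodes β2-microglobulin, the light chain that a heavy chain needs to fold and reach the surface. B2m (chromosome 2, 122147687 to 122153082, plus strand) had an FPKM of 729 for sham and 849 after radiation, from 19037 and 25377 fragments. The difference was 0.22, with a counting interval from 0.19 to 0.25, the narrowest of the 10, and 16.3% of genes were at least as high. B2m lies outside the MHC, and 0 of its 75-base windows occurred in another gene. B2m RNA stood at 2.96 times the summed FPKM of H2-D1 and H2-K1 for sham and 2.78 times after radiation.

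The start regions of H2-D1, H2-K1, and B2m are shown because these genes have the highest levels of the set, and B2m has the same direction of difference from another chromosome. Each run is the 200 bases before the gene's start in RefSeq (GRCm38.p6), read in the direction of the gene. The positions are chr17:35262894-35263093 on the plus strand for H2-D1, chr17:34000334-34000533 on the minus strand for H2-K1, and chr2:122147487-122147686 on the plus strand for B2m. Capitals mark letters of the X2 box core (TGACG), of the Y box (ATTGG or its reverse complement CCAAT), and of the interferon-stimulated response element core, which is GAAA, any 2 bases, GAAA. The X2 and Y boxes are parts of the composite element through which NLRC5 is known to act.
H2-D1: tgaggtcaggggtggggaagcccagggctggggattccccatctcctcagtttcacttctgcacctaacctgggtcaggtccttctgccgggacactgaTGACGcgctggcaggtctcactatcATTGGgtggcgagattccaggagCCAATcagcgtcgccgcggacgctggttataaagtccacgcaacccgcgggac
H2-K1: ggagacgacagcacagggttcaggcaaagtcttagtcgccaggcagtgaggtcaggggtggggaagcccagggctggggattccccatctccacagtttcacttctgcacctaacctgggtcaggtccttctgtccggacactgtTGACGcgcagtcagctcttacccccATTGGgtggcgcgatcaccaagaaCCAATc
B2m: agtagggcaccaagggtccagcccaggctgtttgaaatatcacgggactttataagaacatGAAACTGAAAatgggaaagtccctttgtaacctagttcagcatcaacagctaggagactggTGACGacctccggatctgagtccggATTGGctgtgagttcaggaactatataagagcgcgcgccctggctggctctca

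Each of the 3 regions held TGACG followed, after 20 bases, by ATTGG. In H2-D1 these boxes ended 97 and 72 bases before the start, in H2-K1 51 and 26 bases before it, and in B2m 74 and 49 bases before it. The regions of H2-D1 and H2-K1 share long runs of letters, so their matches are not separate occurrences. Aligned end to end, 138 of 247 columns (55.9%) were identical for H2-D1 and H2-K1, and 107 of 225 (47.6%) for H2-D1 and B2m. Columns with gaps count as not identical. The shared part of H2-D1 and H2-K1 lies at different distances from the starts, so 55.9% understates the likeness of that part. The distances depend on where the start of each gene is listed. The response element core in its exact form was found in B2m alone of the 3, from 139 to 130 bases before its start. Forms that depart from these letters were not searched, so a missing match does not show that a gene lacks a response element. A match is a description of letters and not of binding.

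Tap1 and Tap2 encode the paired subunits of the transporter that pumps cytosolic peptides into the endoplasmic reticulum. Tap1 (chromosome 17, 34187556 to 34197225, plus strand) had an FPKM of 3.41 for sham and 4.16 after radiation, from 562 and 784 fragments. Its difference was 0.28, with a counting interval from 0.13 to 0.44, and 11.9% of genes were at least as high. Tap2 (chromosome 17, 34204479 to 34216321, plus strand) had 6.67 and 7.63, from 506 and 661 fragments. The difference of Tap2 was 0.19, with a counting interval from 0.02 to 0.36 that came close to 0. Both subunits were higher in the irradiated library, and the FPKM of Tap1 was 51.0% and 54.5% of that of Tap2, a change within counting error (log2 interval from -0.13 to 0.32).

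Tapbp encodes tapasin, which holds empty class I molecules next to the transporter and edits the peptides they take. Tapbp (chromosome 17, 33919478 to 33929290, plus strand) had an FPKM of 36.4 for sham and 41.3 after radiation, from 3052 and 3959 fragments. The difference was 0.18, with a counting interval from 0.11 to 0.25, and 20.1% of genes were at least as high.

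**Figure D2:**
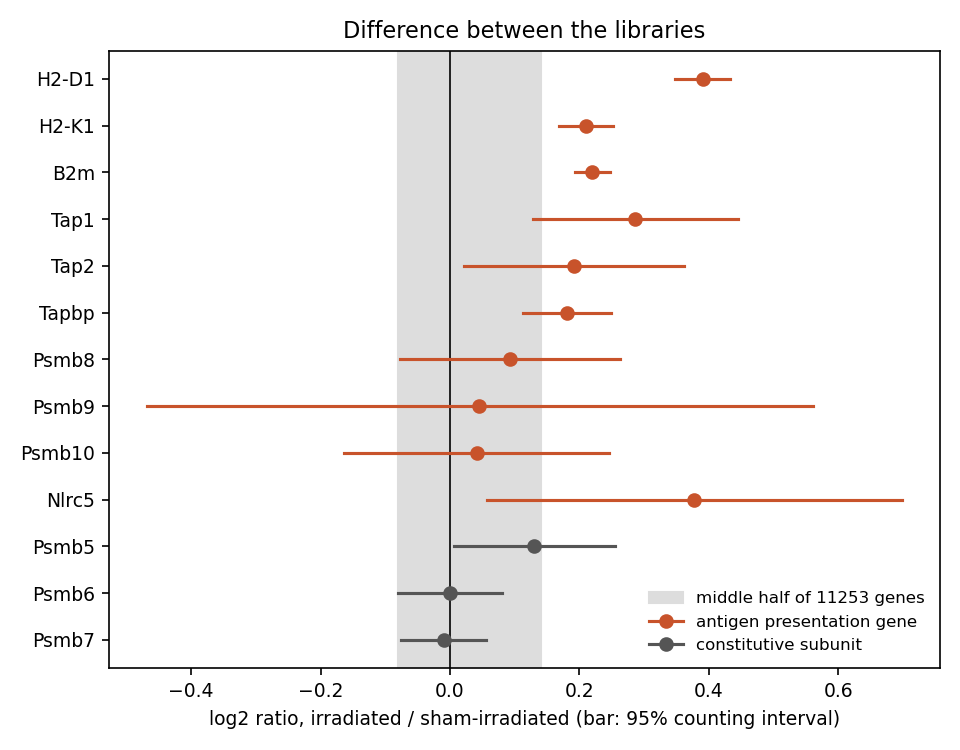
Log2 ratio of each gene's fragments between the irradiated and the sham-irradiated library, per library total, with its 95% counting interval, for the 10 genes and for the constitutive subunits Psmb5, Psmb6, and Psmb7. The gray band from -0.08 to 0.14 holds the middle 50% of the 11253 genes, and the points of the 3 immunoproteasome subunits fall inside it while those of H2-D1, H2-K1, B2m, Tap1, Tap2, Tapbp, and Nlrc5 lie to its right.

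Psmb8, Psmb9, and Psmb10 encode the catalytic subunits that replace Psmb5, Psmb6, and Psmb7 in the immunoproteasome, a form that leaves peptide ends suited to class I grooves. They had the lowest differences of the 10 genes. Psmb8 (chromosome 17, 34198195 to 34201454, plus strand) had an FPKM of 13.9 for sham and 14.8 after radiation, from 518 and 632 fragments. Its difference was 0.09, with a counting interval from -0.08 to 0.26.

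Psmb9 (chromosome 17, 34182099 to 34187330, minus strand) had an FPKM of 2.48 and 2.58, from only 61 and 72 fragments. The difference of Psmb9 was 0.05, and its counting interval from -0.47 to 0.56 was the widest among the 9 genes over an FPKM of 1, so a difference of the size seen for H2-D1 was not detectable for it. Psmb10 (chromosome 8, 105935728 to 105938392, minus strand) had 9.48 and 9.75, from 366 and 431 fragments. Its difference was 0.04, with a counting interval from -0.16 to 0.25. At least as high a difference was found in 33.8% of genes for Psmb8, 42.9% for Psmb9, and 45.3% for Psmb10.

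Summed over the 3 subunits, 945 fragments were found for sham and 1135 after radiation, a log2 ratio of 0.07 with a counting interval from -0.06 to 0.20. The summed FPKM of the 3 was 17.7% of that of Psmb5, Psmb6, and Psmb7 for sham and 18.1% after radiation. This log2 change of 0.04 had a counting interval from -0.10 to 0.17. The pairs were unlike in level, with Psmb8 at 39.1% and 38.0% of Psmb5, Psmb10 at 26.8% and 27.7% of Psmb7, and Psmb9 at 3.29% and 3.41% of Psmb6. Against the summed FPKM of H2-D1, H2-K1, and B2m, the immunoproteasome subunits stood at 2.65% and 2.35%, a log2 change of -0.17 with a counting interval from -0.30 to -0.05. For the transporter subunits the same ratio was 1.03% and 1.02%, a change within counting error. The ratios other than those to the constitutive subunits were chosen after the values were seen.

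Nlrc5 encodes the transactivator of class I genes and is itself induced by interferon. Nlrc5 (chromosome 8, 94472763 to 94527272, plus strand) was the lowest of the 10, with an FPKM of 0.653 for sham and 0.846 after radiation, from 138 and 205 fragments. Its difference was 0.33 on the deposited scale, which the added 0.1 shrinks at this level, and the log2 ratio of its fragments was 0.38 with a counting interval from 0.06 to 0.70. Among the 10 genes only H2-D1 had a higher deposited difference.

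**Figure D3:**
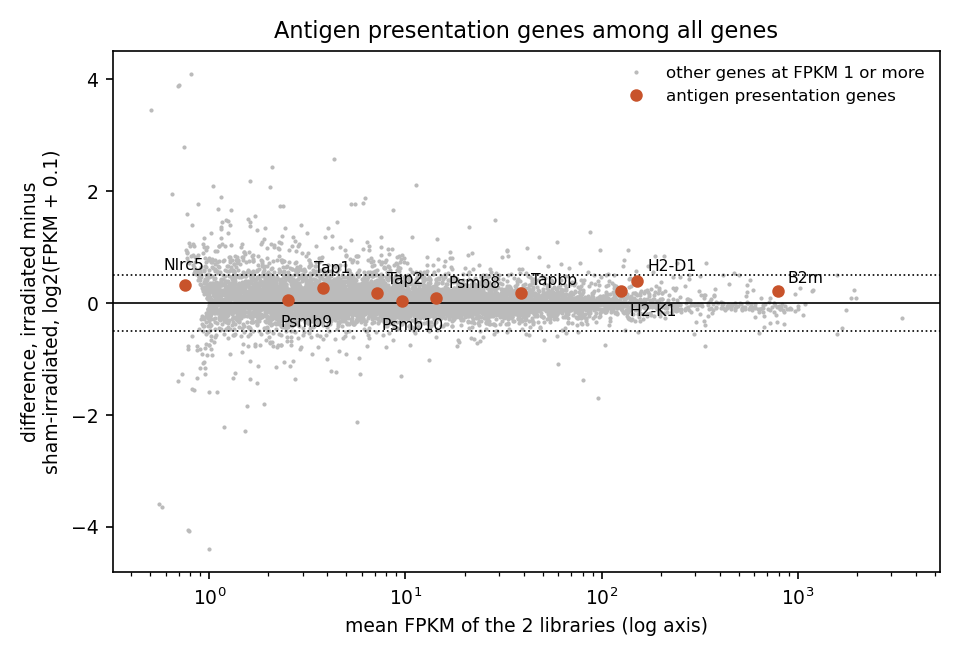
Difference between the libraries on the log2(FPKM + 0.1) scale against the mean FPKM on a log axis, with each gray point a gene that reached an FPKM of 1 and the 10 antigen presentation genes in orange. Dotted lines mark differences of 0.5 and -0.5, and the orange points all lie between 0 and the upper line.

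Of the 10 genes, 7 lie on chromosome 17, 2 on chromosome 8, and 1 on chromosome 2. Psmb9, Tap1, Psmb8, and Tap2 follow each other within 34.2 kb of the MHC, and Psmb9 and Tap1 are read away from each other from starts separated by 225 bases. Those 225 bases (chr17:34187331-34187555) are shown in the direction of Tap1 because one stretch of sequence lies before both genes, whose differences were 0.05 and 0.28. The counting interval of Psmb9, from -0.47 to 0.56, held all of that of Tap1, from 0.13 to 0.44. Counting error therefore does not separate these differences. Capitals mark the same letters as above.
Psmb9-Tap1: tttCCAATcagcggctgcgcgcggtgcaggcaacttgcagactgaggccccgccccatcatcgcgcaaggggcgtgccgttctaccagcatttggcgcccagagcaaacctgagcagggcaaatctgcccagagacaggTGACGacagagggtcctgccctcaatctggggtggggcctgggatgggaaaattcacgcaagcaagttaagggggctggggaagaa

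The stretch held TGACG once, ending 82 bases before the start of Tap1, and the reverse complement of the Y box once, close to the start of Psmb9. In the GENCODE annotation the genes overlap on opposite strands. The library preparation is labelled as stranded, but no source used here says if counting used the strand. Annotated genes on the opposite strand also overlap B2m, Tap2, Tapbp, Psmb8, Psmb10, and Nlrc5, and Zbtb22 overlaps Tapbp on the same strand.

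RefSeq promoter windows, from 250 bases before to 50 bases after a start, were found for 8 of the 10 genes, and Tap2 and Nlrc5 had none in the table. On either strand, TGACG was present in 5 of the 8 windows, those of H2-D1, H2-K1, B2m, Tap1, and Psmb9, and in 20.8% of all 32851 windows. The Y box was present in 6 of the 8, these 5 and Tapbp, and in 37.4% of all windows. The response element core, searched in its exact form only, was present in B2m alone (3.44% of all windows). The interferon gamma activated site, TTC, any 3 bases, GAA, was present in Psmb8 alone (8.30% of all windows). A κB site of GGG, any 5 bases, CC was present in H2-D1, H2-K1, B2m, Tap1, and Psmb9, and in 50.8% of all windows. With 4 bases in the gap it was present in H2-D1, H2-K1, Tap1, Psmb9, and Psmb10 (43.8% of all windows), and matches of the 2 κB forms overlapped each other while no other motifs did. The windows of Tap1 and Psmb9 hold much of the same sequence.

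The other genes of the MHC segment were spread around 0. Between the start of Tapbp and the end of H2-D1, 53 other genes passed the FPKM minimum, without those of the class I list below. Their median difference was 0.01, with 28 higher and 25 lower, and the counting interval lay above 0 for 12 and below 0 for 8. Of all genes that passed, 53.5% were higher, and the counting interval lay above 0 for 23.8% and below 0 for 17.4%. The 7 antigen presentation genes of the segment had a median of 0.19, and 7 of 7 were higher, 5 of them with a counting interval above 0. The ends of this segment were chosen after the values of the 10 genes were seen.

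Other class I and class I-like genes were mostly low. Of 32 in the table, 11 passed the FPKM minimum, and their median difference was 0.18. Of the 11, 8 were higher and 3 lower, against 53.5% and 44.0% of all genes that passed. The counting interval lay above 0 for 4 and below 0 for 0, against 23.8% and 17.4%. H2-T23, which encodes Qa-1, a ligand of an inhibitory receptor of natural killer cells, had an FPKM of 19.1 for sham and 24.2 after radiation. Its difference was 0.34, with a counting interval from 0.22 to 0.47. H2-Q4, with 21.3 and 24.8, had a difference of 0.22. Of the 75-base windows of H2-T23 13.1% occurred in another gene, and of those of H2-Q4 7.91%.

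Among the 11 genes of this list that reached an FPKM of 1, the highest differences were those of Procr, which encodes the protein C receptor of the clotting system, at 0.46 (14.8 and 20.4), and of Ulbp1, a ligand of the activating receptor NKG2D, at 0.43 (4.59 and 6.22). Neither presents cellular peptides. H2-M3, which presents formylated peptides, had a difference of 0.22 with a counting interval from -0.03 to 0.49. Cd1d1 (0.09), Mr1 (0.12), and H2-Q7 (-0.02) had counting intervals that included 0. The lowest values among the 11 were those of Hfe, a regulator of iron uptake, at -0.25 and of Fcgrt, the neonatal Fc receptor, at -0.12, both with a counting interval that included 0.

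**Figure D4:**
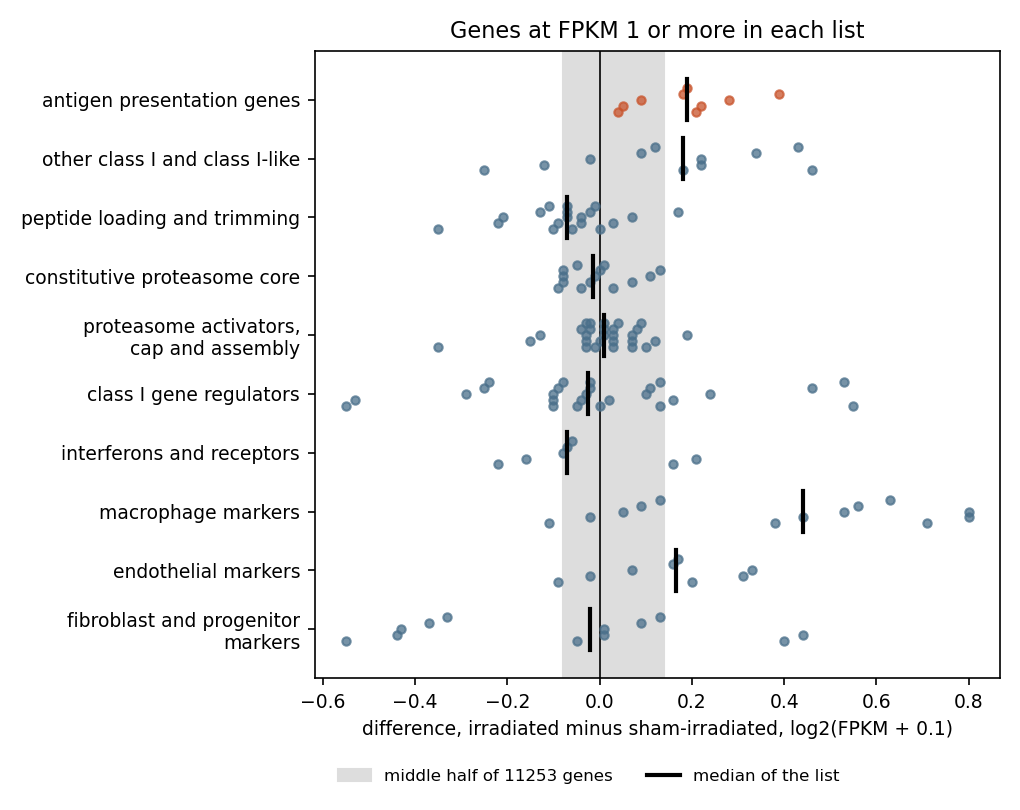
Difference between the libraries for each gene that reached an FPKM of 1, by list, with the median of each list as a bar and the middle 50% of all 11253 genes as a gray band. The medians of the antigen presentation genes (0.19), other class I genes (0.18), macrophage markers (0.44), and endothelial markers (0.165) lie above the band. The medians of the other lists drawn lie within it, such as the proteasome core (-0.015) and the loading and trimming genes (-0.07). Mesothelial markers, with a median of 1.255, are not drawn.

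The general chaperones and peptidases that serve class I assembly were mostly at or below 0. Of 19 loading and trimming genes, all over an FPKM of 1, 3 were higher, 15 lower, and 1 equal, with a median difference of -0.07. The counting interval lay above 0 for 2 and below 0 for 7, against 23.8% and 17.4% of all genes that passed. Calr, which encodes the lectin chaperone calreticulin, had an FPKM of 1144 for sham and 989 after radiation, a difference of -0.21 with a counting interval from -0.23 to -0.19. Pdia3, the oxidoreductase that pairs with tapasin, had 474 and 443, a difference of -0.10. Canx, the membrane-bound relative of calreticulin, had the same value of 245 in both.

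Erap1, the aminopeptidase that trims peptides inside the endoplasmic reticulum, had an FPKM of 12.99 and 12.03, a difference of -0.11 with a counting interval from -0.20 to -0.02. Tapbpl, a relative of tapasin, had a difference of -0.07 with a counting interval from -0.32 to 0.17. The lowest values were those of Hspa5, the main chaperone of the endoplasmic reticulum, at -0.35 (815 and 639), and of Sec61a1, a channel subunit, at -0.22. The highest were those of Lnpep, an aminopeptidase of endosomes, at 0.17 and of Tpp2, a cytosolic peptidase, at 0.07.

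The constitutive proteasome lay close to 0. Of 14 core subunits 5 were higher, 8 lower, and 1 equal, with a median of -0.015 and a range from -0.09 for Psma4 to 0.13 for Psmb5. The counting interval lay above 0 for 3 and below 0 for 4, against 23.8% and 17.4% of all genes that passed. Psmb5 had an FPKM of 35.7 for sham and 39.0 after radiation, with a counting interval from 0.01 to 0.26. Psmb6 had 75.5 in both, and Psmb7 had 35.4 and 35.2. Psma5, at 0.11, was next to Psmb5 and Psmb2, at -0.08, next to Psma4. The most abundant subunits were Psma2, with 138 and 145, and Psmb4, with 137 and 140.0.

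Activators, cap subunits, and assembly factors, 28 genes, had a median of 0.01, with 16 higher, 11 lower, and 1 equal. Of all genes that passed, 53.5% were higher and 44.0% lower. The PA28 activator, which interferon gamma is known to induce along with the immunoproteasome, is encoded by Psme1 and Psme2. Psme1 had a difference of 0.03 (36.4 and 37.2) and Psme2 of 0.00 (46.8 in both), both with counting intervals that included 0. Psme3, the nuclear relative, had -0.03. The highest of the list was Psmd8 at 0.19 and the lowest was Psmg4, an assembly factor, at -0.35 on 153 and 137 fragments. Psmc4, at 0.12, and Psmg1, at -0.15, stood next to them. The most abundant were the cap subunits Psmd2, with an FPKM of 145 and 142, and Psmc1, with 116 and 122.

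The regulators of class I genes had values in both directions. Of 27 genes 26 passed the FPKM minimum, with 10 higher, 15 lower, and 1 equal, and a median of -0.025. Of all genes that passed, 53.5% were higher and 44.0% lower. The counting interval lay above 0 for 7 of the 26 and below 0 for 8, against 23.8% and 17.4%. The interferon-regulated factors Irf7, with an FPKM of 22.2 for sham and 32.6 after radiation, and Irf8, with 1.07 and 1.59, had the highest differences of 0.55 and 0.53. Irf1, which binds the response element of class I genes, had 9.35 and 10.5, a difference of 0.16 with a counting interval from 0.04 to 0.28. Irf2 had a difference of -0.09.

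The RFX partners through which NLRC5 reaches DNA had values below 0. Rfx5 had a difference of -0.10 and Rfxank of -0.03, both with counting intervals that included 0. Rfxap had an FPKM of 3.84 for sham and 3.13 after radiation, a difference of -0.29 with a counting interval from -0.56 to -0.04. Ciita, the class II relative of Nlrc5, had 4 and 6 fragments. The lowest differences of the list were those of Socs1, a feedback inhibitor of interferon signalling, at -0.55 (2.71 and 1.82), and of Jak2, a kinase of the interferon gamma receptor, at -0.53 (78.1 and 54.1). Jak1, the kinase with the highest level of the list, had 116 and 108, a difference of -0.10.

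RNA of the interferons themselves was at or near 0. Ifng had 0 fragments in both libraries, which allows an FPKM of up to 0.0814 for sham and 0.0711 after radiation. Ifnb1 had 0 and 1 fragments, and 8 of the 17 genes of the list had none in either library. Of the 7 that passed the FPKM minimum, 2 were higher and 5 lower, with a median of -0.07. Of all genes that passed, 53.5% were higher and 44.0% lower. Of the receptor subunits, Ifngr2 (0.16) and Il10rb (0.21) had a counting interval above 0, Ifnar1 (-0.16) and Ifnar2 (-0.22) one below 0, and Ifngr1 (-0.08) one that included 0. Tnfrsf1a, a receptor of tumor necrosis factor, had the highest level of the list, with an FPKM of 90.4 and 86.7.

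Markers of other cell types were higher in part alongside the 10 genes, and of all genes that passed 53.5% were higher. Of 13 macrophage markers, all over an FPKM of 1, 11 were higher in the irradiated library, with a median difference of 0.44, and their summed FPKM was 625 for sham and 669 after radiation. Lyz2, a lysozyme that makes up most of that sum, had 443 and 410, and Cd68, a lysosomal protein, had 59.2 and 96.9. Ptprc, the CD45 surface protein of all leukocytes, had 5.33 and 6.49, a difference of 0.28 with a counting interval from 0.17 to 0.40. Of 8 endothelial markers 6 were higher, with summed FPKM of 47.4 and 51.8, and the most abundant were Cdh5 (16.5 and 16.2) and Pecam1 (10.2 and 11.5). Of 8 mesothelial markers 7 were higher, with 34.5 and 49.5 and a median difference of 1.255. Of these, Wt1 had 20.4 and 18.7 and Upk1b had 5.76 and 11.4.

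Lymphocyte and dendritic cell markers were low. The 9 T and NK lymphocyte markers summed to an FPKM of 2.80 for sham and 1.91 after radiation, with 8 of 9 under 1 in both. Cd3g, a subunit of the T cell receptor complex, was the one above, with 1.12 and 0.617 from 35 and 22 fragments. The 4 B lymphocyte markers summed to 1.44 and 0.485. The 8 dendritic cell markers summed to 4.92 and 4.60, with Itgax, an integrin that macrophages also carry, at 2.36 and 2.35, Ccr7, a homing receptor, at 1.48 and 1.15, Cd209a at 0 fragments in both and Xcr1 and Clec9a at 0 in the sham-irradiated library. Class I genes are active in all of these cell types, and the part of macrophage, endothelial, and mesothelial RNA in the differences of the 10 genes was not tested.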

How the data were processed

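RNA of 2 libraries was measured, and the authors deposited a log2 value for each of 24091 genes, made from FPKM with 0.1 added and rounded to 2 decimals, with gene coordinates and lengths. The submitters' processing notes name the build mm10. The aligner, counting tool, annotation, and filters were not given in the sources used here. Libraries were assigned by their treatment labels.

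FPKM was recovered by undoing the logarithm. The library total was the number that brought the product of FPKM, length, and total closest to whole fragments over genes with few fragments. This held within 0.12 of a fragment for 2570 of 2570 such genes (sham) and 2518 of 2518 (irradiated). Rounding can move a difference by up to 0.01, and fragment counts of abundant genes are approximate. The recovery was tested on simulated data.

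Intervals of a fragment ratio are exact 95% binomial (Clopper-Pearson) intervals, and those of a ratio between genes combine Poisson errors by the delta method. PCR copies are not independent molecules, so intervals and floors cover counting error only. A count of 0 was given an upper limit of 3 fragments. No p-value was computed.

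The 10 genes, the gene lists, and the comparisons were chosen with earlier results of these data known. Named genes are the 10, the 2 highest, 2 lowest, and 2 most abundant of each pathway list, the 2 most abundant of each marker list, and a set written with the lists, of which 1 is not reported here. Alternatives were log2(FPKM + 1), fragments with no pseudocount, no minimum FPKM or one of 5, centring, scaling without the 100 most abundant genes, a threshold of 1, means, and leaving out the heavy chains. Motifs were searched in RefSeq promoters (GRCm38.p6), and transcript windows in GENCODE M21. The analysis ran in Python (3.11.15) with pandas (2.3.3), numpy (2.4.6), and SciPy (1.17.1), and matplotlib (3.10.9) drew the plots.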

Additional observations from a re-analysis of the deposited data

How the results depend on the processing

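No paired analysis was possible because there was a single library of either condition, and none could be left out. The median difference of the antigen presentation genes was 0.19 and lay between 0.17, centred on the median of all genes, and 0.20, without a minimum FPKM. With log2(FPKM + 1) it was 0.18, and without H2-D1 and H2-K1 it was 0.18. The count of these genes higher by at least 0.5 was 0 under each of the 8 alternatives run for it, where the threshold of 1 counted genes higher by at least 1. A minimum FPKM of 5, the threshold of 1, and leaving out the heavy chains could not raise this count, so their result was fixed in advance. The same holds for log2(FPKM + 1), centring, and the other scaling, which lowered each of these differences. Having no minimum added only Nlrc5, already known to be at 0.33. Only fragments with no pseudocount could have raised the count. The count of those higher at all, 9 of 9, was 10 of 10 without a minimum and 7 of 7 with an FPKM of at least 5, alternatives chosen after seeing the data. Of the single genes, each of the 40 values under another pseudocount or scaling stayed within its counting interval. For Nlrc5 that interval was wide, and its difference was 0.16 with log2(FPKM + 1) in place of 0.33. On that scale it was higher only than those of the immunoproteasome subunits. Scaling without the 100 most abundant genes shifted genes by -0.02. The median of the activators, cap subunits, and assembly factors, 0.01, turned to -0.01 when centred, and the log2 change of Psmb8 over Psmb5 was -0.04 where that of the 3 subunits summed was 0.04, both within counting error. Depth limits Psmb9, Nlrc5, and the class I-like genes under an FPKM of 1.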

Other observations

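The spacing of TGACG and ATTGG with 20 bases between them, seen in the start regions of H2-D1, H2-K1, and B2m, was then searched on both strands in all 32851 RefSeq promoter windows. It was present in 31 of them (0.0944%), belonging to 27 genes. Since the spacing was read from 3 of the antigen presentation genes, their matches are no support for it. H2-M3, a class I gene that was not used to choose the spacing, was also among the 27 genes. Its FPKM was 5.03 for sham and 5.88 after radiation, with a counting interval from -0.03 to 0.49 that included 0. No other gene of the class I and class I-like list was among the 27, and H2-T23 (difference 0.34) and H2-Q4 (0.22) were absent. How many of those genes had a promoter window was not counted, and a link between spacing and difference was not tested.

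Some class I genes with close relatives were listed at or near 0. H2-Q6 had 0 fragments in both libraries and H2-Q8 had 0 and 2, whereas H2-Q7 had 501 and 565. H2-T22 had 2 and 0 fragments, whereas H2-T10 had 50 and 68. Of the 75-base windows of H2-T22, 26.1% occurred in another gene, most often H2-T10, and of those of H2-Q6 17.9% did, most often H2-Q7. No source used here says how the counting treated such fragments, so low values of these genes were not read as absence.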
